A study of Arabidopsis thaliana with 8 samples.

Results

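SWEET1, SWEET16 and SWEET17 are sugar transporter genes of Arabidopsis thaliana, and each was measured by 1 probe set of a microarray in seedlings labelled E2Fa-Dpa and in wildtype seedlings. They were taken as the probe sets that the platform annotation pairs with these symbols alone, 3 genes of 13350 so named. The annotation holds 12 other single symbols that start with SWEET, which served for comparison. The 3 genes were chosen with earlier results of the same contrast known, so their differences between the groups are given as a description, with no test.

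SWEET proteins are uniporters that let sugars cross a membrane down their concentration gradient, without coupling to protons. Members in the plasma membrane release or take up hexoses or sucrose, and members in the tonoplast, the membrane of the vacuole, let stored sugar in or out. In Arabidopsis SWEET1 is known as a glucose uniporter of the plasma membrane, SWEET17 as a fructose carrier of the tonoplast with strong expression in roots, and SWEET16 as a tonoplast carrier of several sugars. E2Fa forms a dimer with its partner DPa, and the dimer acts as a transcription factor on genes of the cell cycle.

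Both groups were whole Col-0 seedlings, grown on agar with Murashige and Skoog salts at 22°C with 16 h of light and 8 h of dark, and harvested at 6 days from germination (8 days from sowing). The E2Fa-Dpa group and the wildtype group held 4 arrays each, 1 array per sample. The labels state no transgene, promoter or line for E2Fa-Dpa. In published work plants of that name overexpress both genes from a constitutive viral promoter, and the sources used here do not say whether these seedlings came from 1 line. The signals of E2Fa and DPa themselves were not analysed here, so the group labels carry no check by them. The labels do not say whether the samples of a group were grown separately or how many seedlings each held, so the spread between arrays may be partly technical. Signal in a whole seedling does not tell fewer cells that express a gene from less RNA per cell.

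The values are MAS5 signals, linear intensities scaled between arrays by the authors. Median signals per array ranged from 37.9 to 44.4. Bacillus poly-A control RNA gave signal on 4 arrays, E2Fa-Dpa replicates 1 and 4 and wildtype replicates 3 and 4, where its dap probe set read 79.4 to 121, and read 0.644 to 6.17 on the other 4. These array sets cross the groups, with 2 arrays of each group in either set. The 2 arrays of a group within a set were close to each other over all probe sets (r = 0.994 for E2Fa-Dpa and 0.974 for wildtype with control RNA, 0.988 for E2Fa-Dpa and 0.985 for wildtype without it). If such a pair came from 1 RNA, the 4 arrays of a group would stand for 2 samples. Signal of the 3' over the 5' probe set, a sign of RNA quality, was 1.68 to 1.99 for actin with control RNA and 1.21 to 1.58 without it, and for ubiquitin 1.15 to 1.29 with control RNA and 1.67 to 1.95 without it. For GAPDH it was 0.931 to 1.03 in E2Fa-Dpa and 0.835 to 0.918 in wildtype. The part of these ratios in the results below was not tested.

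SWEET1, the plasma membrane member, was the one of the 3 with higher signal in E2Fa-Dpa. Its signals were 278.3, 239.1, 273.7 and 307.6 in E2Fa-Dpa replicates 1 to 4, against 108.9, 85.37, 46.34 and 59.61 in wildtype replicates 1 to 4. All 4 E2Fa-Dpa arrays lay above all 4 wildtype arrays, and the lowest E2Fa-Dpa signal was more than double the highest wildtype signal. The means were 274.7 ± 28.1 in E2Fa-Dpa and 75.06 ± 27.8 in wildtype (SD, n = 4 each), a ratio of 3.66. On the log2(signal + 16) scale, where 16 was added to damp the noise of dim probe sets, the difference was 1.72 ± 0.209 (SE). Of the 22746 probe sets tested, 125 others had a larger positive difference, which places SWEET1 as number 126.

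SWEET17, the fructose carrier of the tonoplast, differed the other way. Its signals were 54.53, 125.1, 120.8 and 57.57 in E2Fa-Dpa replicates 1 to 4, against 447.2, 343.0, 190.4 and 198.1 in wildtype replicates 1 to 4. All E2Fa-Dpa arrays lay below all wildtype arrays. The means were 89.51 ± 38.7 in E2Fa-Dpa and 294.7 ± 124 in wildtype (SD, n = 4 each), so the wildtype mean was 3.29 times the E2Fa-Dpa mean. The log2 difference was -1.55 ± 0.33 (SE), number 53 from the lowest of all tested probe sets.

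SWEET16, its closest relative in the family and also a tonoplast carrier, differed less. Its signals were 45.2, 79.46, 59.65 and 52.21 in E2Fa-Dpa replicates 1 to 4, against 127.7, 118.4, 86.58 and 52.21 in wildtype replicates 1 to 4. The groups overlapped, because wildtype replicate 4 read the same, to the digits given, as E2Fa-Dpa replicate 4 and lower than E2Fa-Dpa replicates 2 and 3. The means were 59.13 ± 14.8 in E2Fa-Dpa and 96.21 ± 34.2 in wildtype (SD, n = 4 each), with a log2 difference of -0.54 ± 0.246 (SE). The difference was larger in size than that of 86.9% of tested probe sets.

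Of the 3 genes, 1 lay wholly above and 1 wholly below wildtype. Over all tested probe sets 9.53% lay wholly above wildtype and 6.77% wholly below it. Nothing is read from that count, since the 3 genes were chosen from this contrast.

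**Figure D1:**
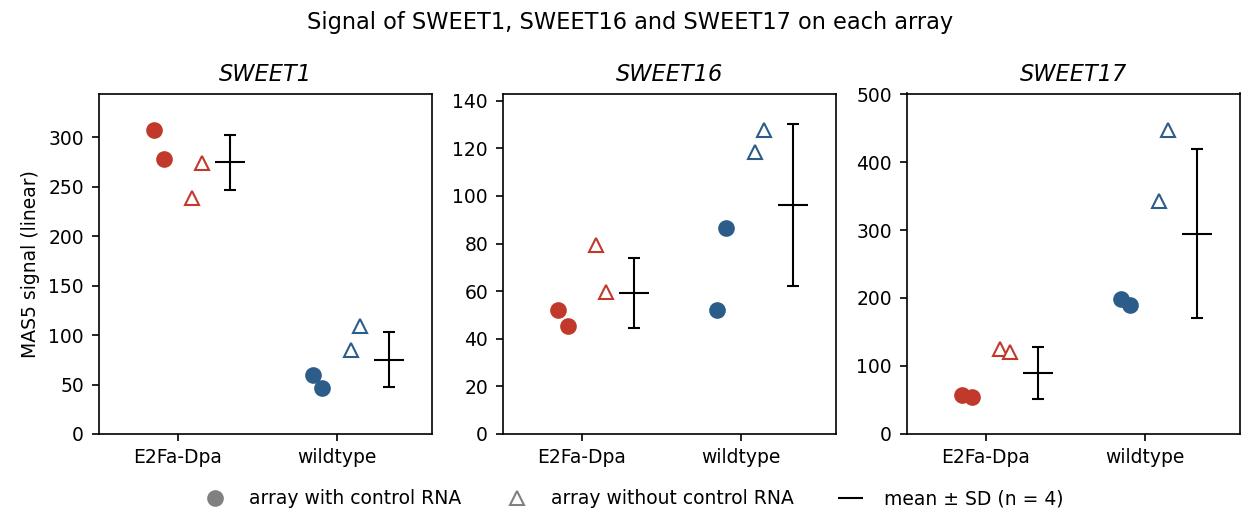
MAS5 signal (linear, vertical axes from 0) of SWEET1, SWEET16 and SWEET17 on each array, E2Fa-Dpa left and wildtype right in each panel, with filled circles for arrays with control RNA, open triangles for arrays without it, and the mean ± SD over 4 arrays beside them. SWEET1 lies at 239.1 to 307.6 in E2Fa-Dpa and 46.34 to 108.9 in wildtype, SWEET17 at 54.53 to 125.1 in E2Fa-Dpa and 190.4 to 447.2 in wildtype, and only SWEET16 overlaps.

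The array sets were then compared, with the group in the model. The choice of the 3 genes did not use this contrast. Its error comes mostly from the close pairs of arrays, so the p-values are too small if each pair came from 1 RNA, and calls are also given with each pair averaged to 1 value. The tests here and below are limma's, with Benjamini-Hochberg adjustment over all 22746 probe sets and a threshold of 0.05.

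SWEET17 fell in the arrays with control RNA relative to those without it. In the arrays with control RNA it averaged 56.05 in E2Fa-Dpa and 194.2 in wildtype, and in those without it 123.0 in E2Fa-Dpa and 395.1 in wildtype, each over 2 arrays. The log2 difference with minus without control RNA was -0.95 ± 0.0975 (SE, adjusted p = 0.000786, and 0.0468 with pairs averaged), lower in all 4 arrays than in the arrays of the same group without it. The 4 means stand in the order wildtype without control RNA, wildtype with it, E2Fa-Dpa without it and E2Fa-Dpa with it, and no array of one of these pairs overlapped with the next pair.

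SWEET16 also fell with control RNA, by -0.56 ± 0.154 on the log2 scale (SE, adjusted p = 0.0278). Its pair means were 48.71 in E2Fa-Dpa and 69.4 in wildtype with control RNA, and 69.56 in E2Fa-Dpa and 123.0 in wildtype without it. The arrays of wildtype with control RNA and E2Fa-Dpa without it, the pairs in the middle, overlapped, and the wildtype arrays with control RNA met those of E2Fa-Dpa with it at 52.21. The call was lost without E2Fa-Dpa replicate 1 or 2 or wildtype replicate 1 or 2 (adjusted p = 0.0681 to 0.0752) with each array centred on its median (adjusted p = 0.0544) and with pairs averaged (adjusted p = 0.101).

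SWEET1 did not pass in this contrast (-0.27 ± 0.185, SE, adjusted p = 0.319). Its pair means were 292.9 in E2Fa-Dpa and 52.97 in wildtype with control RNA, and 256.4 in E2Fa-Dpa and 97.15 in wildtype without it. E2Fa-Dpa was thus higher and wildtype lower with control RNA. The 2 of 3 genes that fell compare with 16.5% of all tested probe sets that fell and 9.73% that rose with control RNA. With pairs averaged 1 of 3 fell, against 1.29% of all tested probe sets.

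Whether the group difference itself differed between the array sets was tested as an interaction, which 0.0835% of tested probe sets passed. Its error comes from the close pairs alone, so it could not be fitted with pairs averaged. None of the 3 genes passed. SWEET1 had an unadjusted p under 0.05, as had 1315 tested probe sets in that direction and 1332 in the other. The SWEET1 difference was 2.17 ± 0.156 in the arrays with control RNA and 1.27 ± 0.138 in those without it (SE, log2), an interaction of 0.90 ± 0.22 (adjusted p = 0.196). Leaving out wildtype replicate 4 took this interaction to 1.04 (adjusted p = 0.0379), the one such fit of 8 in which it passed, and the adjusted p ranged up to 0.661 in the others. SWEET17 had -1.54 ± 0.126 with control RNA and -1.55 ± 0.139 without it, an interaction of 0.01 ± 0.196 (adjusted p = 0.993). SWEET16 had -0.37 ± 0.233 with control RNA and -0.71 ± 0.147 without it, an interaction of 0.34 ± 0.296 (adjusted p = 0.718).

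The rest of the family gives the setting for these values. Of the 17 SWEET genes of Arabidopsis 16 were measured by a probe set that names 1 gene, all but SWEET12. The annotation carries SWEET5 as AtVEX1 and SWEET15 as SAG29, which the RefSeq gene table joins to the family through synonyms. SWEETIE also starts with these letters but is no member of the family, and had -0.06 ± 0.197 (SE, adjusted p = 0.905).

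None of the 13 other family genes passed between E2Fa-Dpa and wildtype (adjusted p = 0.294 to 0.965), and 0 had an unadjusted p under 0.05 in either direction. Among all 22746 tested probe sets 4.36% rose and 2.94% fell by adjusted p. At an unadjusted p under 0.05, 2856 of them were higher and 2437 lower. The differences were negative for 11 of 13, against 11190 of all 22746 tested probe sets, with a median of -0.24 against 0.00. Of the 13, 9 had a signal under 50 on every array, among them SWEET8, needed for pollen development, SWEET9, the nectary sucrose carrier, and the pollen gene AtVEX1. Differences at such signals are damped by the added 16. Of these 9, 7 had negative differences, against 5742 of the 10206 probe sets under 50 on every array. At an unadjusted p under 0.05, 595 of those 10206 were higher and 673 lower, and 0 of the 9 passed in either direction. SWEET7 had all 8 arrays under 16, and SWEET6, SWEET8 and SWEET10 had 7 of 8.

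The 4 brighter ones behaved in different ways. SWEET2, a tonoplast member known from roots, had 63.82, 143.0, 115.4 and 51.37 in E2Fa-Dpa replicates 1 to 4 and 252.2, 209.0, 85.24 and 65.58 in wildtype replicates 1 to 4. The groups overlapped, and the log2 difference was -0.54 ± 0.421 (SE, adjusted p = 0.504). SWEET2 is the third tonoplast gene, and its estimate was close to that of SWEET16.

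SWEET11, a sucrose exporter of the phloem parenchyma, had 231.9, 651.1, 623.6 and 240.9 in E2Fa-Dpa and 725.4, 743.6, 531.8 and 533.4 in wildtype. E2Fa-Dpa replicates 1 and 4, both with control RNA, were far below the other arrays, while replicates 2 and 3 lay within the wildtype range. The difference was -1.12 with control RNA and -0.20 without it, and its interaction did not pass (-0.92, adjusted p = 0.086).

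SAG29 (SWEET15), a sucrose carrier known from senescing leaves and seeds, had the widest range of the family. It read 2.601, 69.44, 83.1 and 1.934 in E2Fa-Dpa and 467.4, 496.7, 36.04 and 7.306 in wildtype. Its high arrays are the 4 without control RNA, and within either set E2Fa-Dpa lay below wildtype. The group difference over all arrays was -1.68 ± 1.06 (SE, adjusted p = 0.387). SWEET4, a hexose carrier, read 16.43 to 24.85 in E2Fa-Dpa and 13.29 to 54.19 in wildtype, with a difference of -0.37 (adjusted p = 0.457). Its means were 19.47 in E2Fa-Dpa and 32.62 in wildtype, and only wildtype replicate 1 lay above 50.

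With the array set as a block, 4 of the 13 fell, SWEET2, SWEET11, AtVEX1 and SAG29 (adjusted p = 0.028, 0.0258, 0.0395 and 0.00853), against 9.77% of all tested probe sets that fell in that fit. It takes its error mostly from the close pairs too. With each close pair as a random block 0 of 13 passed.

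**Figure D2:**
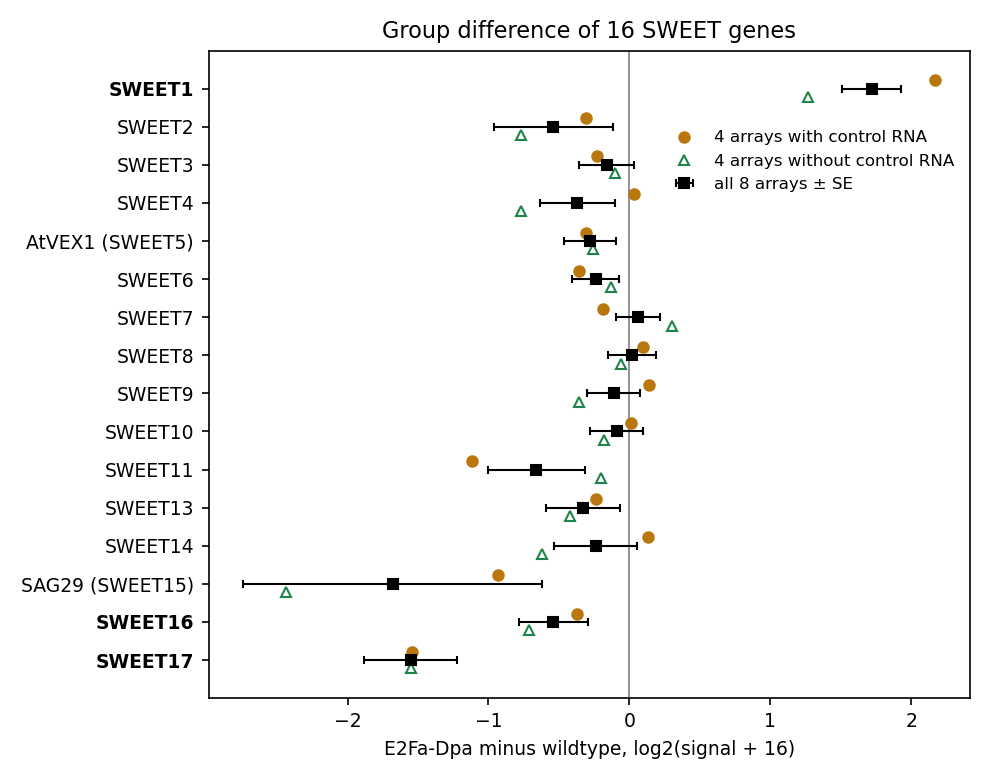
Difference between E2Fa-Dpa and wildtype on the log2(signal + 16) scale (horizontal axis) for the 16 measured SWEET genes (vertical axis, by family number, the 3 chosen genes in bold), with black squares and bars for all 8 arrays ± SE, circles for the 4 arrays with control RNA and triangles for the 4 without it. SWEET1 lies at 1.72 and SWEET17 at -1.55, where the values of both array sets coincide, while SAG29 has a wide error.

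Between the array sets 8 of the 13 other family genes fell with control RNA and 0 rose, against 16.5% and 9.73% of all tested probe sets. The differences were negative for all 13, against 13813 of all 22746 tested probe sets, with a median of -0.50 against -0.07. SAG29 had -3.09, SWEET2 -1.21, SWEET11 -0.91, and SWEET13 and SWEET14, both sucrose carriers, -0.72 each (adjusted p = 0.000921, 0.00113, 0.00674, 0.00273 and 0.0192). SWEET3, SWEET4 and AtVEX1 also passed. The count was 7 with each array centred on its median, against 11.2% of all tested probe sets, and 5 with quantile normalization, against 10.9%. With pairs averaged 2 of the 13 fell, SWEET2 and SAG29 (adjusted p = 0.0457 and 0.0356), against 1.29% of all tested probe sets. Among the 9 dim family genes 4 fell, against 15.1% of the 10206 probe sets that were under 50 on every array. All 9 had negative differences, against 7323 of those 10206. The share of probe sets with a signal under 16 was 34.0% to 35.7% on the arrays with control RNA and 30.3% to 31.7% on those without it, and its part in these values was not tested.

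**Figure D3:**
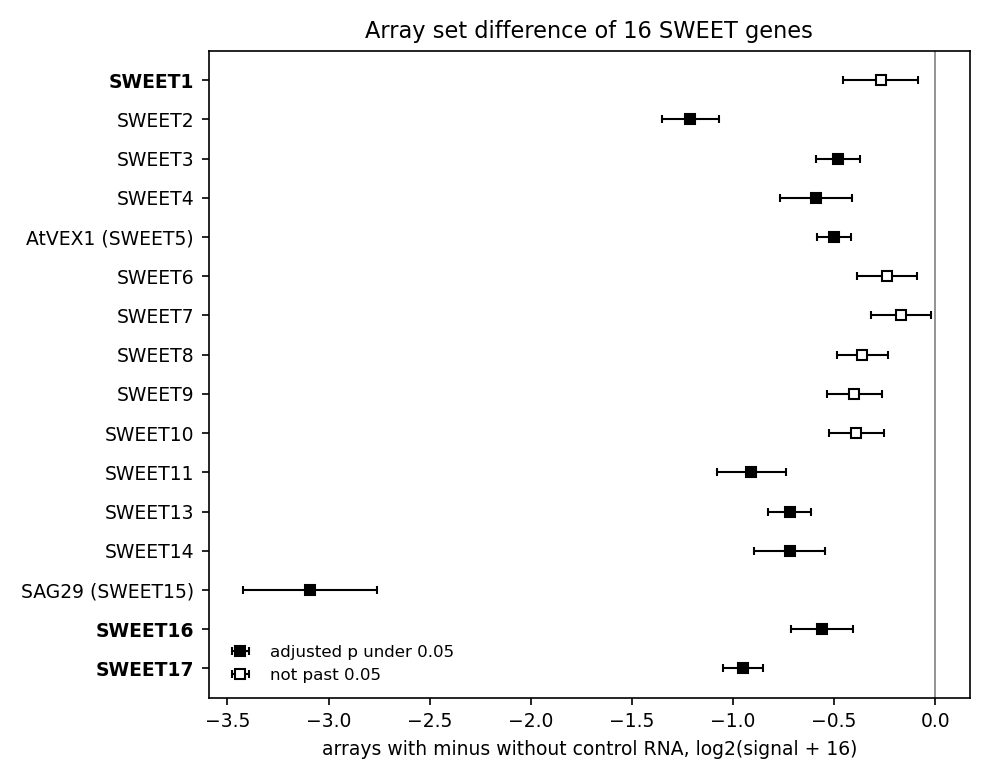
Difference between arrays with and without control RNA on the log2(signal + 16) scale ± SE (horizontal axis), with the group in the model, for the same 16 SWEET genes (vertical axis), filled where the adjusted p was under 0.05 with all 8 arrays fitted singly. All 16 estimates lie below 0, from -0.17 for SWEET7 to -3.09 for SAG29.

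Genes of sugar transport, sucrose cleavage and sucrose synthesis outside the family were listed by locus. Of the 65 listed genes 13 had a probe set that names 1 gene, and the list of 9 proton-coupled sucrose symporters had none. In E2Fa-Dpa 1 of the 13 rose, against 4.36% of all tested probe sets, and 1 fell, against 2.94%. The median difference was -0.18, against 0.00 over all probe sets. Between the array sets 6 of these 13 fell with control RNA and 0 rose, against 16.5% and 9.73% of all tested probe sets. Their median there was -0.43, against -0.07, and 11 of 13 were negative. With pairs averaged 0 of the 13 fell, against 1.29%. Lower signal with control RNA was thus not limited to the SWEET family.

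AT5G61520, which has no gene symbol in the annotation and was listed with the proton-coupled hexose symporters, rose in E2Fa-Dpa. It read 181.2, 167.7, 191.1 and 176.7 in E2Fa-Dpa replicates 1 to 4, against 51.33, 49.42, 79.45 and 100.2 in wildtype replicates 1 to 4. The groups did not overlap, and the log2 difference of 1.22 ± 0.19 (SE, adjusted p = 0.00584) passed whichever of the 8 arrays was left out.

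ATSPS4F, a sucrose phosphate synthase and so an enzyme of sucrose synthesis, fell in E2Fa-Dpa. It read 7.778, 47.59, 26.35 and 10.67 in E2Fa-Dpa replicates 1 to 4 and 175.7, 159.2, 57.17 and 123.9 in wildtype replicates 1 to 4, without overlap. The log2 difference was -1.91 ± 0.376 (SE, adjusted p = 0.0173). Its call was lost without E2Fa-Dpa replicate 1 or 4 or wildtype replicate 1 or 2 (highest adjusted p 0.0616) and with each close pair treated as a random block (adjusted p = 0.0741).

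The tonoplast monosaccharide transporters TMT1, TMT2 and TMT3 load sugar into the vacuole against protons, and thus act at the same membrane as SWEET16 and SWEET17. None of them passed between E2Fa-Dpa and wildtype, with -0.17 ± 0.211, -0.18 ± 0.242 and -0.28 ± 0.213 (SE, adjusted p = 0.704, 0.728 and 0.488). TMT1 read 173.1 to 285.6 in E2Fa-Dpa and 202.4 to 356.5 in wildtype, and its difference was -0.71 with control RNA and 0.38 without it. AT1G62660, also without a symbol, was listed with the invertases, enzymes of sucrose cleavage. It had -1.55 ± 0.454 (SE, adjusted p = 0.0739) and passed in 1 of the 8 fits that leave out an array. With the array set as a block 3 of the 13 fell, against 9.77% of all tested probe sets. These were ATSPS4F, AT1G62660 and AT2G35840, the last listed under sucrose synthesis.

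**Figure D4:**
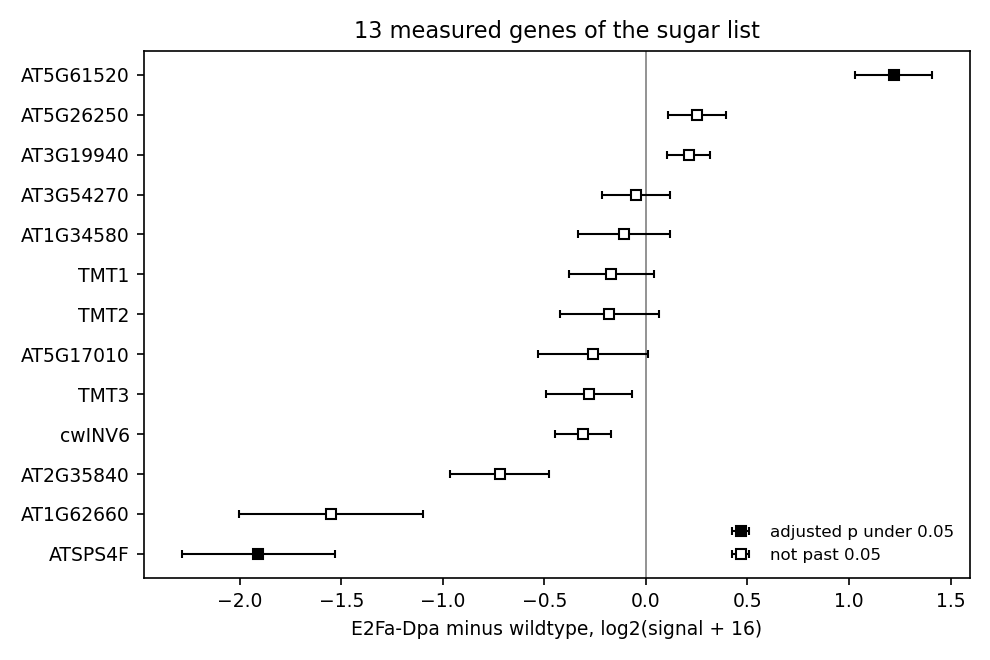
Difference between E2Fa-Dpa and wildtype on the log2(signal + 16) scale ± SE (horizontal axis) for the 13 measured genes of the sugar list (vertical axis, sorted by difference), filled where the adjusted p was under 0.05. AT5G61520 at 1.22 and ATSPS4F at -1.91 passed, and the 3 TMT genes lie between -0.28 and -0.17.

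Markers of seedling organs were present, but few had a probe set that names 1 gene, and only these are called measured. Others may be among the 8730 tested probe sets that the annotation does not list. Of 7 green tissue markers RCA and LHCB4.1 were measured, with summed signals of 6439 to 7200 in E2Fa-Dpa and 7530 to 9762 in wildtype, and neither passed the test. Of 6 root markers PYK10 and AT5G17820 were measured, with sums of 2648 to 3007 in E2Fa-Dpa and 3848 to 4956 in wildtype, and both fell (-0.59 and -0.80, adjusted p = 0.0329 and 0.0324). Each root marker kept its call in 2 of the 8 fits that leave out an array, and both lost it with each close pair as a random block (adjusted p = 0.158 and 0.116). None of these 4 was at or near 0. No vascular or seed marker of the lists, 7 and 4 genes, had a probe set that names 1 gene. All 4 measured markers moved in the same direction as SWEET17 and SWEET16, RCA with -0.30 and LHCB4.1 with -0.37 (adjusted p = 0.219 and 0.161). The part of root or green tissue in those differences was not tested.

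Genes next to SWEET16 and SWEET17 on their chromosomes, 3 and 4, did not pass between E2Fa-Dpa and wildtype. The neighbours of SWEET16, AT3G16680 and AT3G16700, had -0.08 and 0.17 (adjusted p = 0.738 and 0.721), and those of SWEET17, DI21 (AT4G15910) and AT4G15930, had -0.04 and 0.25 (adjusted p = 0.937 and 0.485). Between the array sets AT3G16700 (-0.58, adjusted p = 0.0119) and AT4G15930 (0.46, adjusted p = 0.0153) passed. AT3G16680 and DI21 did not (adjusted p = 0.431 and 0.0619). With pairs averaged AT3G16700 and AT4G15930 lost their calls (adjusted p = 0.0775 and 0.125). The neighbours of SWEET1 on chromosome 1 were not measured by a probe set that names 1 gene.

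Probe sets with the most similar profile over the 8 arrays were sought among 5465 others that name 1 gene and have a mean signal of at least 50. Likeness was Pearson's r of log2(signal + 16) over the arrays, which fall into the 4 pairs described above and share their scaling, so r is a description. AT3G51670, AT5G52810 and AT4G39140 were most like SWEET1 (r = 0.994, 0.991 and 0.988). Their own differences between E2Fa-Dpa and wildtype, 0.63, 0.53 and 0.79, were all smaller than that of SWEET1.

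For SWEET17 these were AT5G35180, AT1G64590 and SFP1, a sugar-porter family protein (r = 0.993, 0.992 and 0.992). SFP1 had -0.66 with control RNA and -0.71 without it, and AT1G64590 came closest to SWEET17 in size, with -1.43 over all arrays. For SWEET16 they were AT3G11690, AT3G53470 and AT2G03240 (r = 0.981, 0.975 and 0.974), all with overlapping groups. SWEET16 and SWEET17 correlated with each other at 0.866, and SWEET1 with SWEET16 and SWEET17 at -0.474 and -0.718.

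**Figure D5:**
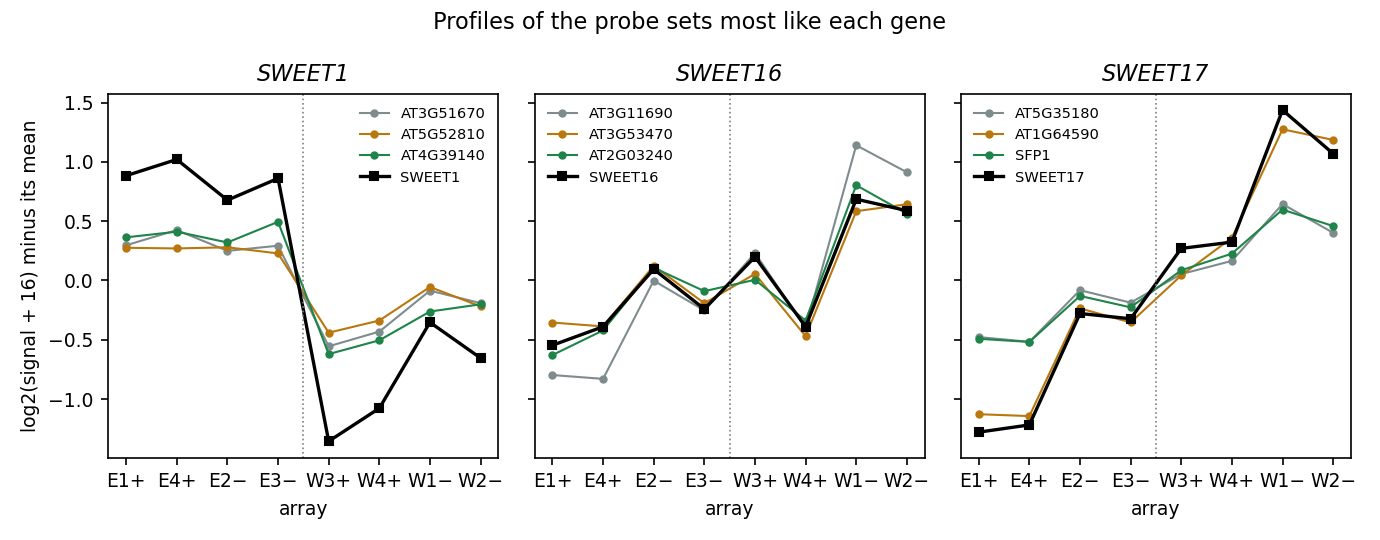
Log2(signal + 16) minus its mean over arrays (vertical axis) for SWEET1, SWEET16 and SWEET17 (black) and the 3 probe sets most like each (colours), on each array (horizontal axis, E for E2Fa-Dpa, W for wildtype, the replicate number, + with and − without control RNA). SWEET1 and SWEET17, each with its matches, divide by group. SWEET17 and its matches are lowest in E2Fa-Dpa with control RNA and highest in wildtype without it. SWEET1 and its matches are lowest in wildtype with control RNA.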

How the data were processed

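Gene expression was measured on Affymetrix ATH1 arrays, 4 of E2Fa-Dpa and 4 of wildtype seedlings, grouped by sample titles. The authors deposited linear MAS5 signal intensities, and MAS5 is named in the submitters' processing notes with no version. No scaling target or detection call was used here. The authors' scaling was kept. Of 22810 probe sets 64 controls were left out, and 22746 were tested without a filter as log2(signal + 16) with limma 3.58.1 in R 4.3.3 (lmFit, eBayes with trend, Benjamini-Hochberg threshold 0.05). Precision is limited by the number of arrays.

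The array sets were split at the widest gap in the mean poly-A control signal. Names came from the platform annotation, in which 13513 tested probe sets name 1 gene, 503 several and 8730 none, and 13436 of the 13513 matched RefSeq's TAIR10.1 gene table, used for names and gene order. A gene with several probe sets was taken at the one with the highest mean. The plain fits of group, array set and interaction were tested on simulated data with independent noise, so without likeness within close pairs. The block and pair-averaged fits were not simulated. The 3 genes, the lists and the array sets were chosen with earlier results of these data known. Named beside the 3 genes were all other SWEET symbols, sugar list genes past the threshold, the measured gene with the highest mean in each role with none, and the 3 probe sets most like each gene. AT2G35840, the other TMT genes, the family genes under other symbols and the neighbours were named after their values were seen. Alternatives were other pseudocounts (1 and 64), quantile and median scaling, a mean signal of at least 50, blocks for replicate number, array set and close pairs, fits within an array set, and each array left out. For the array set contrast, fits with the close pairs averaged or as a random block were chosen after seeing the data.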

Additional observations from a re-analysis of the deposited data

How the results depend on the processing

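The differences of SWEET1, SWEET16 and SWEET17 between E2Fa-Dpa and wildtype kept their sign under every alternative run. For SWEET1 and SWEET17, whose groups did not overlap, another pseudocount, a fit within a set or leaving out an array could not change it. SWEET1 had 1.30 with log2(signal + 64), 2.17 within the arrays with control RNA and 1.27 within those without it. With 1 array left out SWEET1 ranged from 1.56 to 1.89, SWEET16 from -0.76 to -0.40 and SWEET17 from -1.72 to -1.33. The array set difference ranged from -0.66 to -0.41 for SWEET16 and -1.02 to -0.88 for SWEET17 with 1 array left out. That of SWEET16 was -0.49 with median centring and lost its call. It was -0.56 with close pairs averaged, a fit to 4 values, where it also lost its call (adjusted p = 0.101). The reason for that loss was not tested. With close pairs as a random block SWEET16 and SWEET17 passed and SWEET1 did not, as without it, but the estimated correlation was -0.128, so that fit makes no allowance for pairs of 1 RNA. The interaction ranged from 0.75 to 1.05 for SWEET1 and from -0.18 to 0.19 for SWEET17 with 1 array left out, and was -0.11 for SWEET17 with log2(signal + 1). No other SWEET gene passed with 1 array left out (0 to 0). In the group contrast, 4 passed once array set was a block, 1 within the arrays with control RNA and 3 within those without it. SWEET4 had 0.03 within the arrays with control RNA, and SWEETIE had 0.20 within those without it and -0.17 to 0.07 with 1 array left out. In the sugar list 2 fell with median centring, 3 once array set was a block, 0 with close pairs as a random block, 2 within either array set and 0 to 2 with 1 array left out.

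Over all probe sets 992 rose and 669 fell. The counts were 549 and 305 with the replicate block, 2653 and 2223 once array set was a block, and 348 and 106 with close pairs as a random block. They were 781 and 1080 with median centring, 853 and 671 within the arrays with control RNA and 1253 and 1170 within those without it. With 1 array left out 476 to 934 rose and 198 to 763 fell. Replicate numbers 1 to 4 occur in both groups, and across them deviations from group means correlated at -0.519, 0.443, -0.359 and 0.526. The arrays numbered 1 and 3 lie in different array sets, and those numbered 2 and 4 in the same set. Between the groups, all such correlations were positive within an array set and negative between sets. These values therefore cannot tell whether the numbers pair samples. Under the replicate block 1 listed sugar gene rose and 1 fell, as without it. The causes of these shifts were not tested. The fits within a set or without an array also held fewer arrays.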
